A study of Homo sapiens with 6 samples.

Results

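Peaks on unplaced and unlocalized contigs of the human genome numbered 282 of the 197102 peaks in 3 R-loop peak lists. The members are all peaks on a GRCh38 sequence whose name starts with GL or KI, apart from GL000220.1, which was left out. The senescent list gave 130 of its 85564 peaks, the quiescent list 8 of 9736 and the proliferating list 144 of 101802. The lists come from IMR90, a human embryonic lung fibroblast line of wild-type genotype, kept at 2% oxygen. Senescent cells expressed ectopic Ras, quiescent cells were starved, and proliferating cells expressed a control vector. R-loops were mapped by MapR with RNase H fused to micrococcal nuclease, in 1 library per state; the GST-MNase background libraries are not analysed here. The sources used here do not give the Ras construct, its promoter or the length of starvation.

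An R-loop forms when an RNA strand pairs with one DNA strand and displaces the other, which happens most at strongly transcribed and GC-rich sequence. In MapR, a catalytically deficient RNase H finds the RNA-DNA hybrid and the tethered nuclease cuts the chromatin around it. An unlocalized contig is a piece of the assembly known to belong to a chromosome but with no position on it, and an unplaced contig has no known chromosome. Many such contigs come from segmental duplications, satellite borders and the short arms of the acrocentric chromosomes, so their sequence often has near copies elsewhere. KI270733.1, an unlocalized contig of chromosome 22, carries ribosomal DNA, the tandem genes that RNA polymerase I transcribes into the common precursor of the RNAs of both ribosomal subunits.

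With 1 library per state there are no replicates, so no difference between states was tested, and the 95% intervals given here cover counting error only and treat peaks as independent. Read depth is unknown, and the 3 lists differ in length over the whole genome. How reads that map to several places were handled is not stated in the sources used here, and neither this nor the signal of the background enzyme on these contigs was tested for its part in the values below. The authors gave each peak a score in whole numbers, on an unstated scale that starts at 10. Scores were used to rank peaks within a list, with percentile 100 at the top.

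Peaks fell on 32 contigs, 14 unplaced and 18 unlocalized. A senescent peak was present on 29 of them, a quiescent peak on 4 and a proliferating peak on 27. The senescent and proliferating lists shared 24 contigs, 5 had a senescent peak and no proliferating one, and 3 had a proliferating peak and no senescent one. Senescent peaks outnumbered proliferating peaks on 11 contigs, were fewer on 13 and equal on 8. Contigs rich in peaks in one list were rich in the other (Pearson's r 0.897 and Spearman's rho 0.749 across 32 contigs, a description, since contigs differ in length and share 2 libraries). No contig length was used, so numbers per contig are not densities.

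The contigs took a small and similar share of each long list. They held 0.152% of the senescent peaks (Wilson interval 0.128 to 0.180%), 0.0822% of the quiescent peaks (0.0416 to 0.162%) and 0.141% of the proliferating peaks (0.120 to 0.166%). The senescent peaks covered 71.5 kb of contig sequence, the quiescent peaks 3.36 kb and the proliferating peaks 119.1 kb. There were 0.903 senescent contig peaks for each proliferating one (exact binomial interval 0.707 to 1.15), against 0.840 on chromosomes 1 to 22, X and Y. The contig interval contains the chromosome value, and among the 23 chromosomes 1 to 22 and X the ratio ran between 0.746 and 0.903. Chromosome Y, left out of that range, gave 0.364 (12 against 33 peaks). Unplaced contigs gave 0.857 (48 against 56 peaks) and unlocalized contigs 0.932 (82 against 88 peaks). When the lowest-scoring proliferating peaks were dropped until both lists covered the same length, the ratio of peak numbers turned to 2.24 on contigs and 2.11 on chromosomes.

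Covered length gave a lower ratio than peak number. Senescent peaks covered 0.601 times the contig length that proliferating peaks did, against 0.633 on chromosomes. This order turned when KI270733.1 was left out, with 0.688 on the other contigs. Unplaced contigs alone gave 0.755 and unlocalized contigs 0.535. Covered length was lower in the senescent list on 18 contigs and higher on 14.

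Quiescent peaks on contigs were few, at 0.0556 for each proliferating peak (exact binomial interval 0.0235 to 0.112), against 0.0957 on chromosomes. They lay on GL000195.1 (3 peaks), GL000205.2 (3 peaks), GL000219.1 (1 peak) and KI270712.1 (1 peak). Neither KI270733.1 nor KI270721.1, with 18 and 15 senescent peaks, had a quiescent one. A count of 0 in the quiescent list allows a share of up to 0.0308% of its peaks, above the 0.0210% that KI270733.1 held of the senescent list and the 0.0187% it held of the proliferating list. The absence of quiescent peaks there was therefore not a detectable difference at this list length.

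The 10 contigs with the most peaks held 196 of the 282 members (69.5%), 89 of them senescent and 100 proliferating. KI270733.1 had 18 senescent and 19 proliferating peaks. GL000195.1, which is unplaced, had 17 senescent, 3 quiescent and 13 proliferating peaks. KI270721.1, of chromosome 11, had 15 senescent and 14 proliferating peaks, and GL000205.2, of chromosome 17, had 11 senescent, 3 quiescent and 9 proliferating peaks. These 4 contigs were the ones with more than 10 peaks in the senescent list. The next 2 also had close numbers in both long lists, with 8 senescent and 10 proliferating peaks on KI270714.1 of chromosome 1, and 7 of each on KI270734.1 of chromosome 22. The last 4 of the 10 had fewer senescent than proliferating peaks: GL000219.1 with 4 against 6, GL000224.1 with 3 against 8, and GL000214.1 and KI270713.1 each with 3 against 7.

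**Figure D1:**
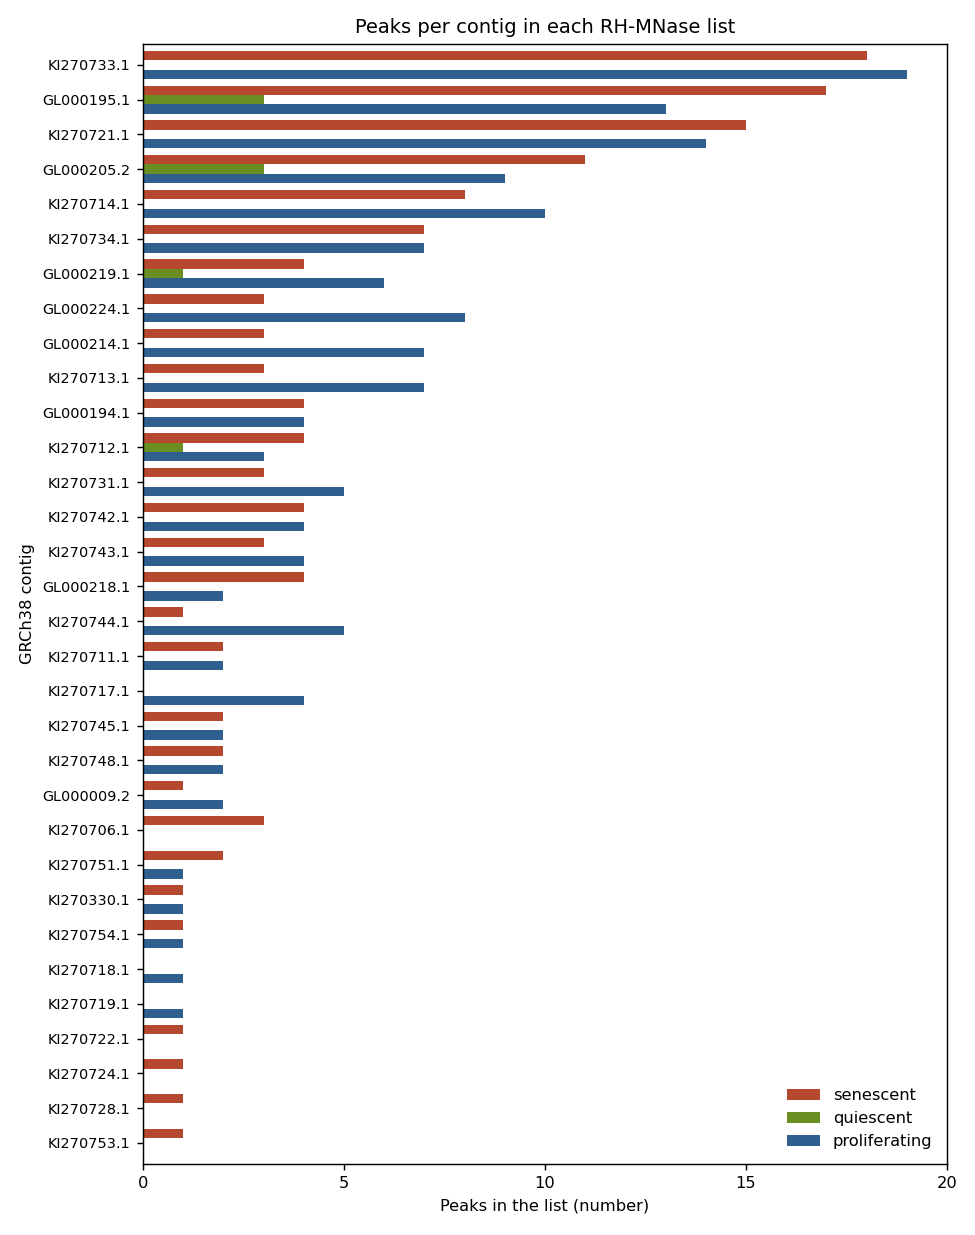
Number of peaks (horizontal axis) on each of the 32 GRCh38 contigs (rows, ordered by the sum over the lists) in the senescent, quiescent and proliferating RH-MNase lists. Bars of the senescent and proliferating lists run close together on the contigs with most peaks, from 18 and 19 on KI270733.1 to 7 and 7 on KI270734.1, and quiescent bars appear on 4 contigs.

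On a few contigs the peaks belonged to 1 of the long lists. KI270706.1, of chromosome 1, had 3 senescent peaks, with scores between 13 and 22, and no proliferating peak. KI270717.1, of chromosome 9, had no senescent peak and 4 proliferating peaks, with scores between 14 and 31. KI270718.1 and KI270719.1, the other chromosome 9 contigs with a peak, had 1 proliferating peak each, at percentiles 79.3 and 78.1 of that list, and no senescent peak. The contigs of chromosome 9 together thus had 0 senescent and 6 proliferating peaks, and the interval of that ratio reached up to 0.849. This interval was read after the counts had been seen, and it contains the ratio over all chromosomes, 0.840. The ratio on chromosome 9 itself, 0.855, and that over all contigs, 0.903, lie above its upper end. No fold is given for these contigs, because a count of 0 allows up to 3 peaks.

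Contig peaks were slightly narrower than chromosome peaks in both long lists. Median width was 449 bp on contigs in the senescent list (interval of the median 388 to 480 bp), against 468 bp on chromosomes. In the quiescent list it was 414 bp over 8 peaks, against 352 bp, and in the proliferating list 513 bp (440 to 579 bp), against 550 bp. Each contig interval contains the chromosome median. Broad peaks over 2000 bp made up 1.54% of the senescent contig peaks (2 peaks), against 2.55% on chromosomes, and 6.25% of the proliferating contig peaks (9 peaks), against 8.05% on chromosomes. No quiescent contig peak was that broad. The smallest width of both long lists, 195 bp, was found in 8 senescent and 9 proliferating contig peaks.

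**Figure D2:**
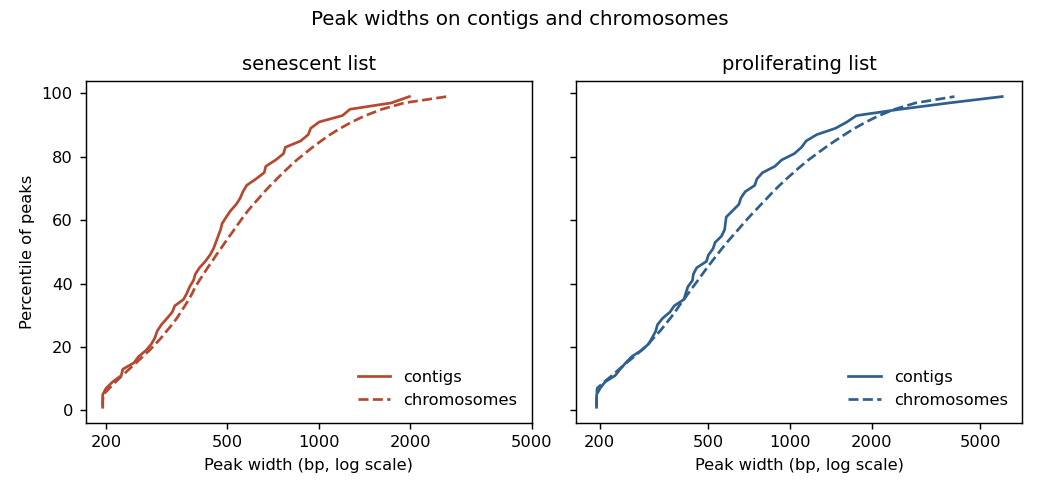
Cumulative curves of peak width (bp, log scale) for contig peaks (solid) and chromosome peaks (dashed) in the senescent list (left) and the proliferating list (right); the vertical axis is the percentile of peaks. The contig curve lies at or left of the chromosome curve through the middle of both panels, with medians of 449 against 468 bp and 513 against 550 bp, and crosses it at the broad end of the proliferating panel, where the broad peaks of KI270733.1 lie.

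By score, contig peaks stood near the middle of their lists. Their median percentile was 54.2 in the senescent list, against 51.5 for chromosome peaks, 40.1 in the quiescent list, against 51.3, and 49.5 in the proliferating list, against 51.1. The top 10% of the list by score took in 17 senescent contig peaks (13.1%, against 9.44% of chromosome peaks) and 17 proliferating contig peaks (11.8%, against 10.1%). The contigs themselves differed more than this. The median percentile was 79.6 in the senescent list and 59.5 in the proliferating list on GL000205.2, and 27.2 and 26.7 on KI270721.1. KI270721.1 was thus a contig with many peaks that ranked low in both lists, and its highest score was 27 in the senescent and 35 in the proliferating list. KI270734.1 also ranked low in the senescent list, at a median percentile of 20.6, and stood at 40.3 in the proliferating list.

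About as many contig peaks had a partner in another state as chromosome peaks did, with a lean towards fewer. A partner is a peak of the other list that shares at least 1 bp. Of 130 senescent contig peaks, 77 had a proliferating partner (59.2%, Wilson interval 50.6 to 67.3%), against 65.7% of the senescent peaks on chromosomes. The difference was -6.51 percentage points (Newcombe interval -15.1 to 1.56). Of 144 proliferating contig peaks, 62 had a senescent partner (43.1%, 35.3 to 51.2%), against 49.9% on chromosomes, a difference of -6.83 points (-14.6 to 1.34). Both intervals include 0. With partners allowed within 1000 bp, the proliferating difference became -8.90 points (-17.0 to -0.876), from 51.4% on contigs against 60.3% on chromosomes, and its interval excluded 0.

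Senescent peaks on KI270733.1 nearly all had a proliferating partner, 17 of 18, while 7 of its 19 proliferating peaks had a senescent one. Single broad proliferating peaks spanned several senescent peaks there. On the other contigs 60 of 112 senescent peaks (53.6%) had a proliferating partner, a difference from chromosomes of -12.2 points (-21.4 to -3.20), whose interval no longer includes 0. Of the proliferating peaks on the other contigs, 55 of 125 (44.0%) had a senescent partner, -5.89 points from chromosomes (-14.3 to 2.87). With each list reduced to the number of peaks of the quiescent list by score, the sign of both differences turned, to 66.7% of 18 senescent contig peaks against 42.8% on chromosomes, and 50% of 16 proliferating contig peaks against 40.3%.

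Partners in the quiescent list were rare, as that list is short. Of the senescent contig peaks 7 (5.38%, Wilson interval 2.63 to 10.7%) had a quiescent partner, against 9.94% on chromosomes, a difference of -4.55 points (-7.31 to 0.763). Within 1000 bp the contig share was again 5.38%, against 12.6% on chromosomes, and the difference of -7.17 points (-9.93 to -1.85) excluded 0. Of the proliferating contig peaks 5 (3.47%, 1.49 to 7.87%) had one, against 8.25% on chromosomes, a difference of -4.78 points (-6.77 to -0.379). Without KI270733.1 that interval became -6.54 to 0.773 and included 0. In the other direction, 7 of 8 quiescent contig peaks (87.5%, 52.9 to 97.8%) had a senescent partner, against 94.1% on chromosomes, a difference of -6.63 points (-41.2 to 3.64). The same number, 7 of 8, had a proliferating partner, against 99.4% on chromosomes, a difference of -11.9 points (-46.5 to -1.69) that rests on 1 peak. The quiescent peak with neither partner was the one on KI270712.1, from 56601 to 56807, 207 bp wide and at percentile 10.2 of its list.

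**Figure D3:**
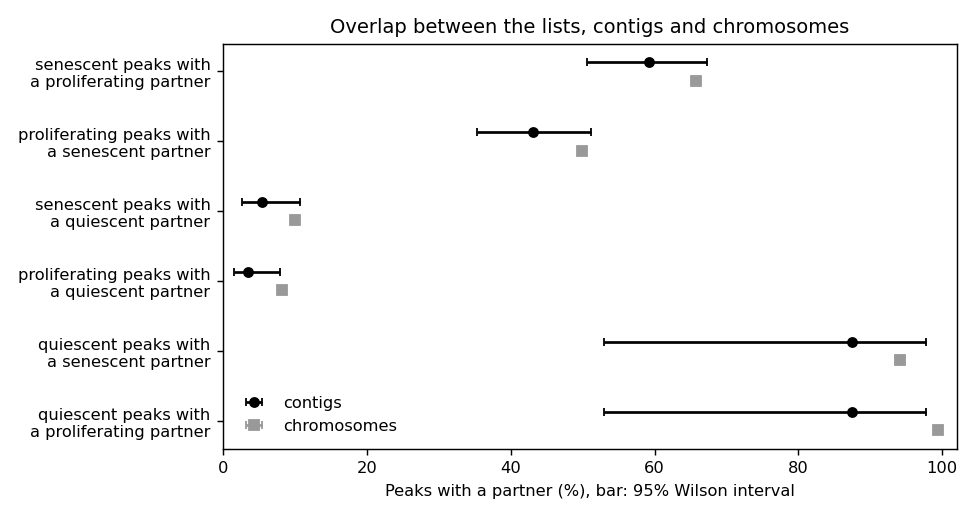
Share of peaks with a partner in another list (horizontal axis, %) for contig peaks (black circles, with 95% Wilson intervals) and chromosome peaks (grey squares). At an overlap of 1 bp all 6 contig shares lie below their chromosome shares, for example 59.2% against 65.7% of senescent peaks with a proliferating partner, and the intervals of the 2 quiescent rows, at 8 peaks each, are the widest.

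Partnered peaks were wider and ranked higher than the rest, on contigs as on chromosomes. Senescent contig peaks with a proliferating partner had a median width of 554 bp and a median percentile of 65.9, and those without one 320 bp and 40.0. Proliferating contig peaks with a senescent partner had a median width of 777.5 bp and a median percentile of 67.0, and those without one 421 bp and 36.1. Each list was also split by score into 5 parts. In the lowest part of the senescent list 4 of 16 contig peaks had a proliferating partner (25%, against 40.0% on chromosomes), and in the highest part 26 of 31 did (83.9%, against 88.9%). For proliferating contig peaks the lowest part gave 5 of 26 (19.2%, against 22.4%) and the highest 22 of 26 (84.6%, against 87.1%). In between, the gap varied from part to part. In the senescent list it was small in the second part (52.6%, against 55.6%) and the fourth (71.0%, against 76.5%). In the proliferating list it was small in the second part (30%, against 32.9%) and the third (41.9%, against 43.9%). It was wider in the remaining parts. The third part of the senescent list had 5 of 14 contig peaks with a partner (35.7%, Wilson interval 16.3 to 61.2%, against 67.8% on chromosomes), and the fourth part of the proliferating list 13 of 31 (41.9%, 26.4 to 59.2%, against 61.9%), and both intervals exclude the chromosome share. These last parts, with the widest gaps, were picked out after their values had been seen. The part of width in these shares was not tested.

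Joined where they overlap, the 282 peaks made 198 regions. A senescent peak alone formed 53 of them, a quiescent peak alone 1 and proliferating peaks alone 82. The senescent and proliferating lists together formed 57, and all 3 lists 5. As shares of all regions, the senescent list alone held 26.8% on contigs, against 22.6% on chromosomes, the proliferating list alone 41.4%, against 39.1%, and both together 28.8%, against 31.8%. All 3 lists held 2.53% on contigs, against 6.29% on chromosomes.

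In the 62 regions held by the senescent and proliferating lists, senescent peaks were mostly the narrower ones. They covered fewer bases in 45 and more in 17 (27.4% wider, against 26.5% on chromosomes), with a median of 574 bp in the senescent list and 777.5 bp in the proliferating list. Rank did not go the same way as width. The best senescent peak stood at a higher percentile than the best proliferating peak in 30 regions and lower in 32 (48.4% higher, against 42.1% on chromosomes). The percentiles come from lists of different length and show a place within a list, not a change of signal. In 8 regions 1 proliferating peak faced several senescent peaks, and in none did 1 senescent peak face several proliferating ones. These counts were not made on chromosomes, where senescent peaks were narrower in 73.4% of such regions. The pattern is therefore not shown to be particular to contigs.

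**Figure D4:**
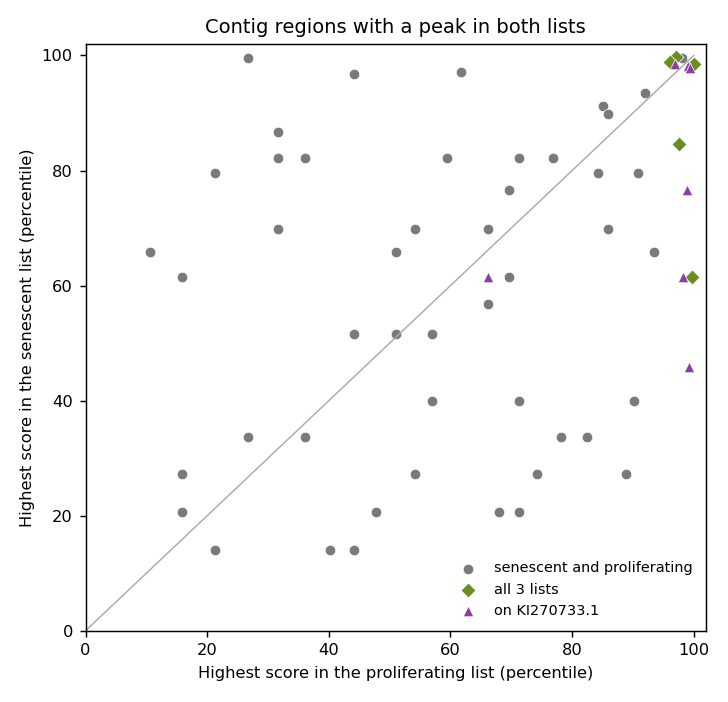
Best score percentile in the senescent list (vertical axis) against that in the proliferating list (horizontal axis) for the 62 contig regions held by both; green diamonds mark the 5 regions also held by the quiescent list, purple triangles the regions on KI270733.1, and the line equal percentiles. Points scatter on both sides of the line, 30 above and 32 below, and the 5 diamonds lie above percentile 96 of the proliferating list.

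The 5 regions held in all 3 states lay on 3 contigs and ranked near the top of the proliferating list. Ranks and widths of chromosome regions held in all 3 lists are not given here, so neither is shown to be particular to contigs. On GL000205.2, from 86284 to 90493, the senescent list had 2 peaks of 2339 and 724 bp with scores of 42 and 45, the quiescent list 2 peaks of 297 and 432 bp with scores of 17 and 25, and the proliferating list 1 peak of 4210 bp with a score of 120. This was the highest score of any contig peak of the proliferating list, at percentile 99.97, and the senescent list stood at percentile 98.6 and the quiescent list at 72.7. The other GL000205.2 region, from 139944 to 141064, had peaks of 942, 724 and 1121 bp in the senescent, quiescent and proliferating lists. Its percentiles were 61.5 in the senescent list, 46.0 in the quiescent list and 99.8 in the proliferating list, so it was at the top of the proliferating list alone.

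On GL000195.1 the region from 30051 to 33420 had 2 senescent peaks (933 and 1752 bp), 2 quiescent peaks (601 and 396 bp) and 1 proliferating peak of 3370 bp. The senescent peak from 30208 to 31140 had a score of 56, the highest of any senescent contig peak (percentile 99.7), while the quiescent peaks stood no higher than percentile 34.2 and the proliferating peak at 97.1. The GL000195.1 region from 85697 to 87310 was near the top of all 3 lists, with percentiles of 98.9 in the senescent, 94.0 in the quiescent and 96.1 in the proliferating list. Its quiescent peak, 252 bp wide, had the highest score of the 8 quiescent contig peaks, 37. The GL000219.1 region, from 98758 to 100006, had peaks of 932, 452 and 1249 bp in the senescent, quiescent and proliferating lists, at percentiles 84.6, 51.3 and 97.6. In each of the 5 regions the proliferating list covered the most bases and the quiescent list the fewest.

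Among senescent contig peaks the next highest scores were 54 on KI270711.1, from 23070 to 23314, and 52 on GL000195.1, from 137657 to 138679. The KI270711.1 peak, of chromosome 1, was 245 bp wide and at percentile 99.6, and the proliferating peak over it, of 326 bp, stood at percentile 26.7. This was a place where the 2 lists ranked the same site far apart. Another region of that contig, from 29402 to 29984, went the other way, at percentiles 40.0 (senescent) and 90.2 (proliferating). The GL000195.1 peak, of 1023 bp, was matched by a proliferating peak of 1199 bp at percentile 98.1. The widest senescent contig peaks were the 2339 bp peak on GL000205.2 and peaks of 2048 bp on KI270733.1 and 1825 bp on KI270748.1, an unplaced contig. The KI270748.1 peak, from 9076 to 10900, was at percentile 65.9 and had no proliferating partner.

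The highest-scoring regions of 1 list alone were lower. For the senescent list they were KI270712.1 from 37409 to 37632 (percentile 92.4), GL000205.2 from 146946 to 147140 (88.4) and GL000195.1 from 23988 to 24416 (84.6). All 3 were under 500 bp. For the proliferating list they were GL000224.1 from 4158 to 5084 (percentile 91.4) and 2 regions of GL000214.1, from 129470 to 129816 and from 135430 to 135851 (83.3 each). The GL000195.1 region belonged to a stretch near the start of that contig, from 211 to 24416, with 5 senescent peaks, scores between 15 and 28, and no peak in either other list. Peaks without a partner were common elsewhere: on chromosomes 65.7% of senescent peaks had a proliferating partner and 49.9% of proliferating peaks a senescent one. On GL000214.1 the long lists also did not overlap. Its 3 senescent peaks lay between 33411 and 93820 and its 7 proliferating peaks between 94082 and 137580. On KI270713.1 the reverse held, as all 3 senescent peaks (195 to 430 bp) lay inside broader proliferating peaks (752 to 2812 bp), and the senescent list covered 829 bp of that contig, against 7226 bp in the proliferating list.

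Ribosomal DNA on KI270733.1 was covered by several short peaks in senescent cells and by a few broad ones in proliferating cells. RefSeq (GRCh38.p14) places RNA45SN4, the gene of the 45S ribosomal RNA precursor, at 122273 to 135645 of a sequence that it lists under chromosome 22 without naming the contig. It was taken to be KI270733.1, since another gene of that set, LOC124905332, ends at base 179772, where the last proliferating peak of this contig also ends. Over the 45S unit the senescent list had 7 peaks of 436 to 2048 bp with scores between 18 and 43, the quiescent list had none, and the proliferating list had 3 peaks of 4173, 7373 and 2588 bp with scores of 82, 80 and 79. Senescent peaks covered 50% of the unit, quiescent peaks 0% and proliferating peaks 92.0%.

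Within the unit some of the mature RNA genes were covered alike in both long lists, and the other segments, 28S among them, more in the proliferating one. The 18S gene, of the small ribosomal subunit, and the short gene between the internal spacers, whose RNA joins the large subunit, were covered over their whole length by senescent and by proliferating peaks. The 28S gene, of the large subunit, was covered over 52.0% in the senescent and 86.6% in the proliferating list. The external spacer before 18S was covered over 41.3% in the senescent and 89.3% in the proliferating list, the first internal spacer over 16.8% and 100%, and the second internal spacer over 28.4% and 100%. The external spacer after 28S had no senescent peak and was covered whole in the proliferating list. The 2000 bp before the unit, where the promoter of RNA polymerase I lies, were covered over 12.8% in the senescent and 55.9% in the proliferating list.

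The contig holds a second, incomplete copy of the unit, in which the 18S gene lies 45081 bp further on. Of its 7 senescent peaks all 7 overlapped a senescent peak of the first copy after that shift. Both proliferating peaks of the second copy likewise overlapped a proliferating peak of the first. The senescent peaks of the second copy were 449 to 1727 bp wide with scores between 17 and 42. The proliferating peaks of the second copy, of 4039 and 8937 bp, had scores of 73 and 85. The broader one was the widest peak of any list on these contigs and ended with the contig. Ribosomal DNA copies are nearly identical, so reads of one copy can be placed on another, and the copies cannot be told apart here.

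Over the whole unit, the 45S genes on chromosome 21 differed in the same direction. Senescent peaks covered 41.5% of RNA45SN1, 37.3% of RNA45SN2 and 46.8% of RNA45SN3, against 83.3%, 88.4% and 79.3% in the proliferating list, and the quiescent list had no peak on them. By segment they did not all follow the contig. In the senescent list the 18S gene was covered over 73.6%, 55.4% and 74.4% of its length on RNA45SN1, RNA45SN2 and RNA45SN3, not whole. On RNA45SN3 the 2000 bp before the unit were covered over 49.3% in the senescent and 54.9% in the proliferating list, close together, and senescent cover of the external spacer before 18S, 55.7%, exceeded that of 28S, 41.7%. In the spacer after RNA45SN4 and in that between RNA45SN3 and RNA45SN1, peaks of the proliferating list alone were found. Spacer before a unit was not always free of senescent peaks. They covered 12.8% of the 2000 bp before RNA45SN4, 19.2% before RNA45SN2 and 49.3% before RNA45SN3, and 0% before RNA45SN1. In the 31.7 kb after RNA45SN4 on KI270733.1 there was no senescent or quiescent peak, and 7 proliferating peaks, with scores between 12 and 27, lay wholly inside, over 12.8% of the length. In the 30.9 kb between RNA45SN3 and RNA45SN1 on chromosome 21 there was again no senescent or quiescent peak, and 4 proliferating peaks lay wholly inside, over 7.57% of the length. These counts are of peaks wholly inside the spacer, and the highest of those on the contig stood at percentile 64.0 of the proliferating list. A count of 0 allows up to 3 peaks, so 0 against 4 on chromosome 21 is near the detection limit. The ends of broad peaks also reach in from the units. With these, proliferating peaks covered 18.4% of the stretch after RNA45SN4 and 11.1% of that between RNA45SN3 and RNA45SN1. Senescent and quiescent peaks covered 0% of both stretches.

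**Figure D5:**
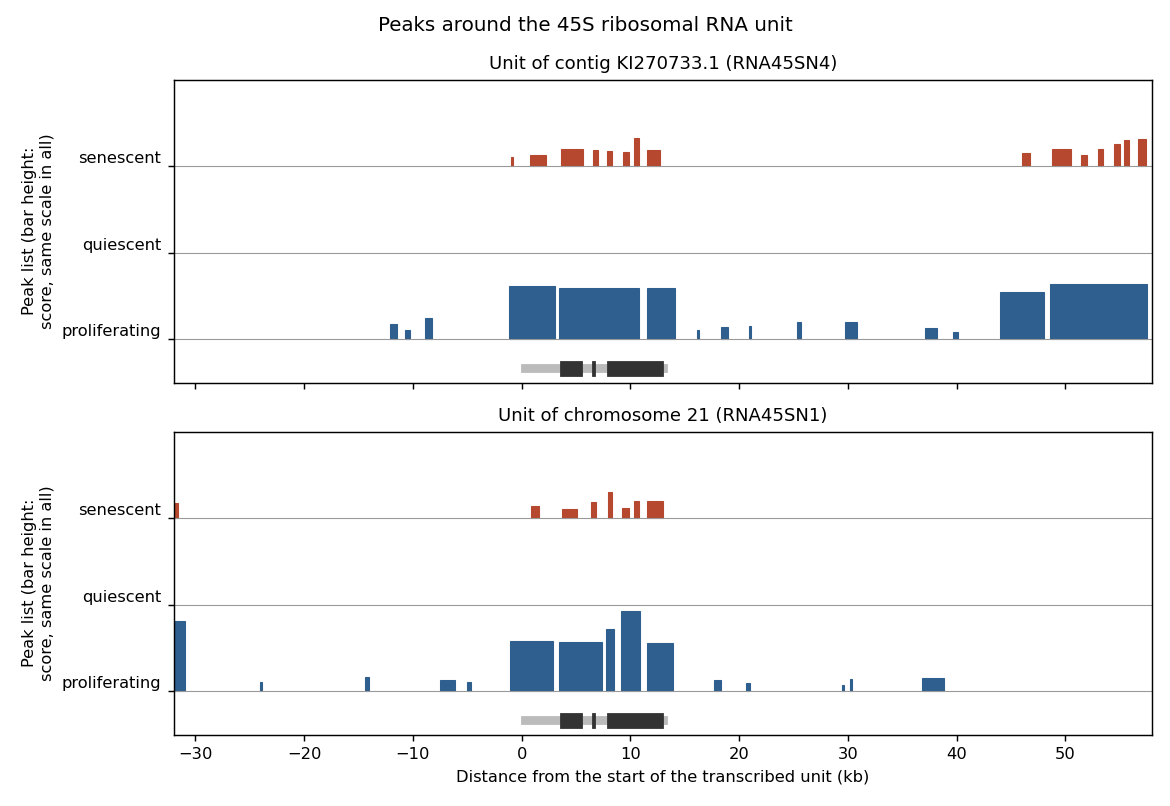
Peaks around the 45S unit of KI270733.1 (top) and of RNA45SN1 on chromosome 21 (bottom) in the senescent, quiescent and proliferating lists, by distance in kb from the start of the transcribed unit; box width is peak width, box height is the authors' score on a common scale that may not be comparable between lists, and the bar at the foot shows the unit in grey with the mature RNA genes in black. The senescent row shows 7 separate peaks over the upper unit and the proliferating row 3 broad ones. Small boxes between units appear in the proliferating row, and the senescent row has a small box (score 14) just before the upper unit.

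KI270733.1 carried 20.3% of all contig bases covered in the senescent list and 30.5% of those in the proliferating list. Outside both copies of the unit it had 4 senescent and 14 proliferating peaks. One place there was high in both long lists, with a senescent peak from 23871 to 25115 (1245 bp, percentile 98.6) and a proliferating peak from 23402 to 25154 (1753 bp, percentile 96.9). Without this contig the median width of contig peaks was 400 bp in the senescent list and 501 bp in the proliferating list, and the median percentile 51.5 and 47.8.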

How the data were processed

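MapR peak lists of 3 RH-MNase libraries were used, 1 per state. Each deposited list gives a peak's sequence name, start, end and a score, which is the authors' own whole number on an unstated scale. The authors worked on GRCh38 with Bowtie2 2.4.5, MACS2 2.2.7.1 and FastQC 0.11.9, per the submitters' processing notes. The settings, the control used for calling and the treatment of reads with several matches were not given in the sources used here. Read depth is unknown.

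Starts were converted to count from 1. Members were selected by sequence name, and the class and chromosome of each contig follow GRCh38 naming. Partners share at least 1 bp. Scores became percentile ranks within a list, ties at their mean rank. Shares carry Wilson, differences Newcombe, ratios exact conditional binomial and medians order-statistic intervals, all at 95%. Python 3.11.15, numpy 2.4.6, pandas 2.3.3 and scipy 1.17.1 were used, and the overlap code was tested on simulated data.

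The members, the contigs and regions named and the alternatives were chosen with earlier results of these data known. Contigs named are the 10 with most peaks, those with a quiescent peak and those with at least 3 peaks in 1 long list and none in the other. Regions named are the 3 highest and 3 widest peaks of each list, those held in all 3 states and the 3 highest of 1 state alone. Other contigs, regions and peaks named were chosen after their values were seen. Genes near contig peaks were to be named, but the RefSeq table does not give contig names, so this was done for ribosomal DNA alone. Contig sequence was not used here.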

Additional observations from a re-analysis of the deposited data

Results flagged for a closer look

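GL000220.1, the contig left out of the members, had 17 senescent peaks, 1 quiescent peak and 18 proliferating peaks. These counts were singled out because they lie outside the comparisons above. The senescent peaks there covered 13.2 kb with a median width of 646 bp, and the proliferating peaks 36.0 kb with a median width of 691.5 bp. The numbers stand next to those of KI270733.1, with 18 senescent and 19 proliferating peaks over 14.5 and 36.3 kb. The median percentile was 79.6 in the senescent and 64.0 in the proliferating list, and 5 of the proliferating peaks were over 2000 bp wide.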

How the results depend on the processing

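No paired analysis was possible because there is 1 library per state and enzyme and the labels carry no replicate numbers; for the same reason no replicate could be left out. Of 125 alternative values of 25 results, 93 moved by less than their counting interval or, for counts, by less than 1.5 times, and 32 moved further. The 93 include duplicates, since the contig with the most peaks is KI270733.1 and its removal was entered under both names. Equal numbers of peaks left the quiescent list unchanged, so its number, share and median width could not move. The 93 are thus not a measure of stability. Keeping peaks at or above the median score left 71 senescent, 3 quiescent and 72 proliferating contig peaks, with median widths of 500 bp (senescent) and 652 bp (proliferating), 100% of quiescent peaks with a senescent and 100% with a proliferating partner, and 30 regions of the senescent list alone, 41 of the proliferating list alone, 31 of both and 3 of all 3 states. Equal numbers of peaks left 18 senescent and 16 proliferating contig peaks, 0.185% of the senescent list, with median widths of 696 and 1683.5 bp, a quiescent partner for 27.8% of senescent and 31.2% of proliferating peaks, and a ratio of covered length of 0.325. Unplaced contigs alone held 48 senescent, 4 quiescent and 56 proliferating peaks. At equal covered length the ratio of peak numbers was 2.24 and that of covered length 0.953. Requiring 50% of both peaks to overlap gave a proliferating partner to 24.6% of senescent and 12.5% of quiescent peaks, a senescent partner to 37.5% of quiescent and 22.2% of proliferating peaks, and a quiescent partner to 2.31% of senescent and 0.694% of proliferating peaks. Here 3 contig shares stood above those of chromosomes, quiescent with senescent (21.9% on chromosomes), quiescent with proliferating (5.99%) and proliferating with quiescent (0.574%), and the intervals of these differences included 0. Partners within 1000 bp raised the share to 67.7% of senescent peaks with a proliferating partner (73.6% on chromosomes) and 51.4% of proliferating peaks with a senescent one (60.3%). Higher score limits, stricter overlaps and unplaced contigs alone lower these counts by construction. Partners within 1000 bp can only raise the shares. Equal covered length takes peaks from the proliferating list alone, so it can only raise the ratios of peak number and covered length. The causes of the other shifts were not tested. The ratio of covered length and the partner shares without KI270733.1 were added after the data had been seen. Shares of the 8 quiescent peaks carry wide intervals.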
